A study of Mus musculus with 34 samples.

Results

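Autophagy genes were followed in the livers of juvenile mice whose thyroid hormone level had been lowered or raised for a short time. A list of 39 genes of the autophagy pathway was used, and each was matched to the array by the RefSeq accession that the files give for a probe. At least 1 probe was found for 37 of the 39 genes, 65 probes in all out of 41174, and Atg9a and Pik3r4 had no matched probe. The list was built around Ulk1 and Trp53inp2, which had been chosen by their log2 ratios, lower in goitrogen-treated pups than in controls. For these genes the difference between hypo and control pups is therefore a description and carries no test. The question was whether the other 35 genes moved in the same way.

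Liver RNA of 34 C57BL/6 pups was taken at postnatal day (PND) 15, and on each array the Cy5-labelled RNA of 1 pup was hybridised against a Cy3-labelled universal mouse reference RNA. In the hypo group (4 males and 5 females), the dams drank water with 0.05% methimazole and 1% perchlorate, which block hormone synthesis in the thyroid, for 3 days, from PND 12 by the methods or PND 13 by the series text. Hyper pups (5 males and 5 females) received 50 µg of T4 and 5 µg of T3 per 100 g of body weight by intraperitoneal injection 4 hours before they were killed. Hypo+ pups (4 males and 3 females) had the same goitrogen exposure as hypo pups and then an injection of 20 µg of T4 and 2 µg of T3 per 100 g at the same time point, and only pups whose serum T4 came out near or slightly above the control level were kept in this group. Control pups (4 males and 4 females) and hypo pups were injected with saline. Exposure of the hypo and hypo+ groups ran through the dam, and pups of a dam may share a group.

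Autophagy is the process by which a cell encloses part of its own content in a double membrane, the autophagosome, and delivers it to the lysosome. It is started by the ULK1 kinase complex, and the membrane then grows with the help of a lipid kinase complex, the ATG9, ATG2 and WIPI proteins, and a conjugation system that couples small proteins of the ATG8 family (LC3 and GABARAP) to lipid. The liver relies on autophagy between meals and around birth to recycle protein, glycogen and lipid. The protein of Trp53inp2, also called DOR, is known both as a nuclear coactivator of thyroid hormone receptors and as a binding partner of LC3 and GABARAP at the forming autophagosome.

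The 250 bases before an annotated start of transcription are shown for Ulk1 and Trp53inp2, around which the list was built, for Ulk2, whose means, like theirs, were lowest in hypo and highest in hyper pups, and for Bnip3, whose means were highest in hypo and lowest in hyper pups. Ulk2 and Bnip3 were picked for this after their values were seen. The sequences are from RefSeq (GRCm38.p6), read 5′ to 3′ on the strand of the gene. Capitals mark AGGTCA, the hexamer recognised by nuclear receptors such as the thyroid hormone receptor, and CACGTG, the E-box bound by TFEB and other factors, each searched on both strands; these motifs share no overlap.
Ulk1, chr5:110810082-110810331, minus strand: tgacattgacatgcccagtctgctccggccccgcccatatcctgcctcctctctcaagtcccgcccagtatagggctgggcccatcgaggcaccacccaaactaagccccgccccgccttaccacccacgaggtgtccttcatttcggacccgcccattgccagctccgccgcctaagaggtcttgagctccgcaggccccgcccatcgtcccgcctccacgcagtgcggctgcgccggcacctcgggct
Trp53inp2, chr2:155381606-155381855, plus strand: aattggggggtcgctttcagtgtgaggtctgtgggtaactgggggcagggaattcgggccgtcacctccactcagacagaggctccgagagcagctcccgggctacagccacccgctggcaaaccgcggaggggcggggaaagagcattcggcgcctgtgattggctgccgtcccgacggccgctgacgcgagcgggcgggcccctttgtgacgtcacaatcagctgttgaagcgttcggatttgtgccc
Ulk2, chr11:61855093-61855342, minus strand: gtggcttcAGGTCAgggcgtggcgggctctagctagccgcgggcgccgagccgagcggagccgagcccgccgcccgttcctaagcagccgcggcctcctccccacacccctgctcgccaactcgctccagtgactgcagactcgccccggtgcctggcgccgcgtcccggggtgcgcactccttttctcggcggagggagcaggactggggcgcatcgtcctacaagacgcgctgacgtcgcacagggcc
Bnip3, chr7:138909507-138909756, minus strand: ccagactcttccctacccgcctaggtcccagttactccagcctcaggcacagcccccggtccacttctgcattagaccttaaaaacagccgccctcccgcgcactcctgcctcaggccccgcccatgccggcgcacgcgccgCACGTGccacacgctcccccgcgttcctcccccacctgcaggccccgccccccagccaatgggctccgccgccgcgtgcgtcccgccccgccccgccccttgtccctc
Neither motif was found in the windows of Ulk1 and Trp53inp2. Ulk2 had 1 AGGTCA starting 242 bases before the start, and Bnip3 had 1 CACGTG starting 108 bases before it. The annotated span of Ulk2 reaches base 61855334, so most of its window, with the AGGTCA, lies within the gene and before an inner start. The span of Ulk1 reaches base 110810120 and that of Trp53inp2 starts at base 155381811. A smaller part of these windows therefore also lies within the gene. RefSeq promoters were matched for 31 of the 39 genes, 36 windows in all. AGGTCA was held by 5 of the 36 windows (13.9%; Gabarapl2, Pik3r4, Ulk2, Nbr1 and Atg4a) and by 14% of all 32851 windows of that length. CACGTG was also held by 5 of the 36 (13.9%; Atg7, Bnip3, Lamp1, Atg5 and Atg3), against 6.02% of all windows. A match describes the letters in the window and is not a site of binding.

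All values below are loess-normalized log2 ratios, pup over reference, and a difference is the mean of one group minus that of another on this scale. Levels of different genes cannot be set against each other, because each probe has its own response. The representative probe of a gene was the brightest on average, and for all 37 genes it was above the limit set by negative control spots on 34 of 34 arrays. The median Cy5 signal of an array was 146 to 199. All 7 hepatocyte markers with a probe were above that limit on every array. Of 14 markers of pancreatic acinar cells 12 had a probe, and their mean log2 ratio was 0.41 to 0.80 in 30 pups and far higher in 4: 4.49 and 4.07 in control males 832 and 522, 3.44 in control female 831 and 2.15 in hypo+ female 543. The median difference of hypo from control over these 12 markers was -2.05 in males and -0.97 in females. Their part in the results was not tested, and differences without these 4 arrays, which are called acinar-high below, are given beside the results that they moved. Macrophage, endothelial and stellate cell markers had median differences of hypo from control between -0.18 and -0.062. The mean log2 ratio of the hepatocyte markers was 4.76 in control and 5.08 in hypo males, and 5.01 and 4.92 in females. That of 12 erythroid markers was 0.65 in control and 0.60 in hypo males, and 0.74 and 0.60 in females. In RNA of whole liver, fewer cells of a type and less RNA per cell cannot be told apart.

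Ulk1 encodes the kinase that starts autophagosome formation. In males its log2 ratio was 1.07, 0.93, 1.42 and 0.91 in the 4 control pups and 0.16, 0.26, 0.33 and 0.53 in the 4 hypo pups. The 4 control females were at 1.11, 0.88, 1.05 and 1.01 and the 5 hypo females at 0.24, 0.93, 0.26, 0.12 and 0.087. All 4 hypo males and 4 of the 5 hypo females lay below every control of their sex, and hypo female 721, at 0.93, lay among the controls. The mean difference was -0.76 ± 0.12 (SE) in males, a 1.69-fold lower ratio, and -0.69 ± 0.14 in females, a 1.61-fold lower ratio. Without female 721 the female difference was -0.84, and without the acinar-high arrays it was -0.67 in males and -0.73 in females. A dimmer probe of Ulk1 gave -0.68 in males and -0.54 in females.

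Hormone-injected pups did not share this low level. Hypo+ males were at 0.99, 1.06, 1.19 and 1.17, within the range of control males, and hypo+ females were at 1.18, 0.97 and 1.39. The females at 1.18 and 1.39 lay above all control females. All hypo+ pups lay above all hypo pups of their sex. The difference between hypo+ and hypo pups was 0.78 ± 0.12 in males and 0.86 ± 0.15 in females. It rests on the same hypo pups that chose the gene and is given without a test. Hyper males were at 1.64, 1.42, 1.32, 1.34 and 1.04 and hyper females at 1.13, 1.10, 1.33, 1.35 and 1.21, which overlapped the controls in both sexes. The difference of hyper from control, 0.27 ± 0.12 in males and 0.21 ± 0.14 in females, did not pass the test (adjusted p = 1.00 and 0.920, limma, with Benjamini-Hochberg adjustment across the whole array). It shares its control pups with the comparison by which Ulk1 was chosen, so these p-values are not independent of that choice.

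Trp53inp2 lies on chromosome 2 and was read by 1 probe. In males it was at 2.36, 2.24, 2.64 and 2.25 in controls and at 2.03, 1.70, 1.38 and 1.50 in hypo pups. Control females were at 2.37, 2.36, 2.07 and 2.14 and hypo females at 1.45, 1.41, 1.80, 1.25 and 1.46. No hypo pup reached the lowest control of its sex, and female 721, which stood apart for Ulk1, was at 1.41 here. The mean difference was -0.72 ± 0.13 in males and -0.76 ± 0.11 in females, 1.64-fold and 1.69-fold lower. Without the arrays high in acinar markers it was -0.65 in males and -0.72 in females. On the 7 slides that held both groups, hypo was below control for Trp53inp2 on 7 and for Ulk1 on 6. These slides hold the pups that chose the genes, so the counts describe the difference and do not test it.

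For Trp53inp2 the hyper pups also stood apart. Hyper males were at 2.71, 2.59, 2.70, 2.80 and 2.76 and hyper females at 2.81, 3.04, 2.87, 2.73 and 2.77. Every hyper female lay above every control female, while control male 522, at 2.64, overlapped the hyper males. Trp53inp2 rose by 0.61 ± 0.11 in hyper females, 1.53-fold (adjusted p = 0.0385, limma, Benjamini-Hochberg), where 0.159% of all genes were called. This comparison, in every fit and on the slides below, shares its control pups with the one by which the gene was chosen. Its p-values are therefore not independent of that choice. The difference in males was 0.34 ± 0.12 (adjusted p = 1.00), and the difference between the sexes did not pass the test (interaction 0.27 ± 0.17, adjusted p = 1.00). The female call lay close to the threshold and was lost without the acinar-high arrays (0.65, adjusted p = 0.0671) and in 11 of the 17 fits that left out 1 female array, with adjusted p between 0.0174 and 0.180. With both sexes in 1 fit, with 1 treatment effect and the presumed litter as a random block, Trp53inp2 rose by 0.48 ± 0.089 (adjusted p = 0.00275, limma, Benjamini-Hochberg; by 0.53 without the acinar-high arrays, adjusted p = 0.00537), and hyper was above control on 8 of the 8 slides that held both, by 0.063 to 0.80.

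In hypo+ pups Trp53inp2 was at 2.43, 2.60, 2.61 and 2.18 in males and 2.49, 2.54 and 2.10 in females, which spanned about the control range. The difference from hypo was 0.80 ± 0.13 in males and 0.90 ± 0.12 in females, again given without a test. The difference of hypo+ from hyper was -0.26 ± 0.12 in males and -0.46 ± 0.12 in females, and neither passed within its sex (adjusted p = 0.515 and 0.181, limma, Benjamini-Hochberg). In the fit of both sexes together the difference of -0.36 ± 0.091 passed (adjusted p = 0.0238), as it did without the acinar-high arrays (-0.39, adjusted p = 0.0175).

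**Figure D1:**
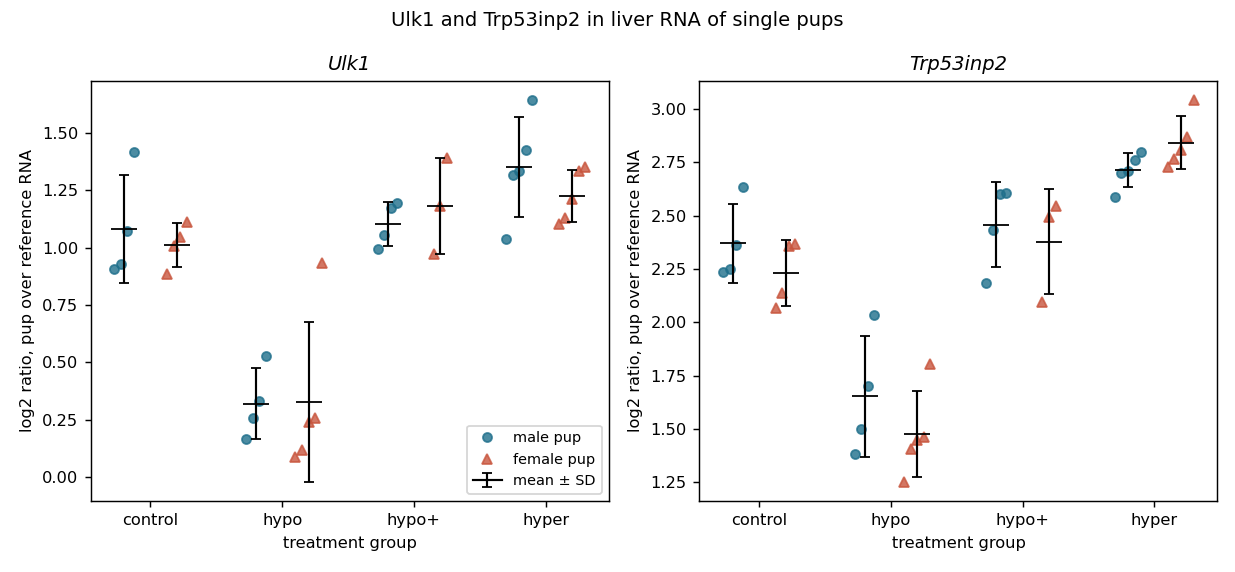
Log2 ratio of pup over reference RNA (vertical axis) for Ulk1 (left) and Trp53inp2 (right) in each pup, by treatment group; circles are males, triangles females, and bars the mean ± SD of 3 to 5 pups. For both genes the hypo pups lie below all other pups except female 721 at 0.93 for Ulk1, and the hyper means lie highest in both sexes.

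None of the other 35 genes was called between hypo and control pups at an adjusted p under 0.05 (limma, Benjamini-Hochberg), while 0.105% of all 33269 genes passed in males and 0.156% in females. At an unadjusted p under 0.05, 4 of the 35 were lower and 1 higher in males, and 3 were lower and 1 higher in females. In all genes these shares were 2.43% and 2.76% in males and 2.29% and 2.46% in females. The median difference of the 35 genes was -0.058 in males and -0.044 in females, beside 0.0031 and -0.0018 over all genes. With median centring in place of loess it was -0.19 in males and 0.045 in females, so its direction in females depended on the scaling. Hypo pups did not overlap controls in 5 of the 35 genes in males, all lower (Ulk2, Rb1cc1, Atg4c, Atg12 and Gabarapl2), against 1.55% of all genes in that direction, and in Atg13 (lower) and Bnip3 (higher) in females, against 0.887% and 0.824%. The 35 differences ran from -0.41 (Ulk2) to 0.44 (Bnip3) in males and from -0.40 to 0.52 in females, for the same genes. Once the acinar-high arrays were left out, Ulk2 was still lowest (-0.59 and -0.41 in males and females) and Bnip3 highest (0.72 and 0.50), none was called, and the medians were -0.061 and -0.045. At an unadjusted p under 0.05, 4 of the 35 were then lower and 2 higher in males, and 3 and 1 in females. The shares of all genes at that level were not taken without these arrays, so nothing is drawn from these counts.

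**Figure D2:**
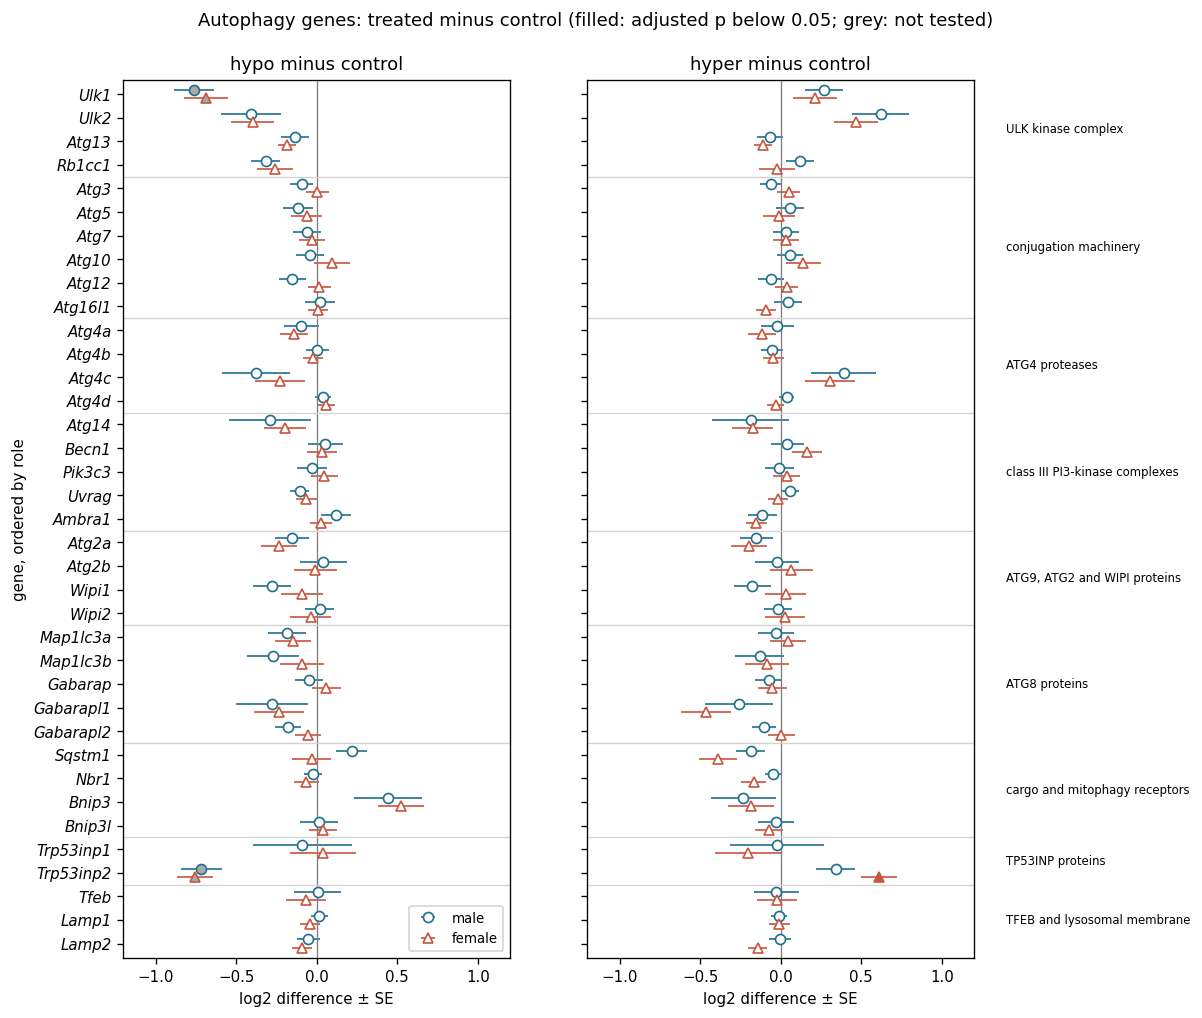
Log2 difference ± SE of hypo minus control (left) and hyper minus control (right) for the 37 autophagy genes, ordered by role; circles are males, triangles females, open symbols did not pass the test, coloured ones have an adjusted p under 0.05, and the grey ones of Ulk1 and Trp53inp2 on the left panel carry no test, since the hypo pups chose these genes. Ulk1 and Trp53inp2 lie far to the left in hypo pups, Ulk2 lies to the left in hypo and to the right in hyper pups, and most other genes lie near 0.

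The ULK complex holds the kinase with Atg13 and Rb1cc1, its scaffold FIP200, and Ulk2 is a close relative of Ulk1. Ulk2 was at 1.69, 1.12, 1.18 and 1.33 in control males, at 0.99, 0.92, 0.85 and 0.93 in hypo males and at 2.27, 1.86, 1.82, 1.77 and 2.03 in hyper males. Control females were at 1.44, 1.21, 1.24 and 1.11, hypo females at 0.77, 0.91, 1.15, 0.60 and 0.82, and hyper females at 1.71, 1.54, 2.07, 1.54 and 1.73. All hypo males lay below and all hyper pups of both sexes lay above the controls of their sex, and hypo female 893, at 1.15, overlapped the controls. The difference of hypo from control was -0.41 ± 0.19 in males and -0.40 ± 0.13 in females (adjusted p = 0.941 and 0.607, limma, Benjamini-Hochberg). That of hyper from control was 0.62 ± 0.18 and 0.47 ± 0.13 (adjusted p = 0.636 and 0.357), and Ulk2 had the largest mean difference of the 35 genes there. On single slides, hypo was below control for Ulk2 on 7 of 7 and hyper above control on 8 of 8. These slides hold the same pups, and the count for hyper follows from the lack of overlap. The counts therefore describe the differences and do not test them. A dimmer probe gave -0.43 and -0.44 for hypo and 0.31 and 0.37 for hyper, in males and females.

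With both sexes in 1 fit, Ulk2 rose in hyper pups by 0.54 ± 0.12 (adjusted p = 0.0144, limma, Benjamini-Hochberg), where 0.775% of all genes were called. Its difference between hypo and control in that fit, -0.40 ± 0.12, did not pass (adjusted p = 0.134). The difference of hyper from control was 0.45 in that fit without the acinar-high arrays and was not called (adjusted p = 0.157), and that of hypo was -0.49 (adjusted p = 0.0981). Hypo+ males were at 1.43, 1.91, 0.73 and 1.54 for Ulk2 and hypo+ females at 1.19, 1.54 and 0.89. This wide spread took in hypo and control levels and reached into the hyper range in each sex. The difference of hypo+ from hyper was -0.55 ± 0.18 in males and -0.51 ± 0.15 in females (adjusted p = 0.285 and 0.227), and Ulk2 fell by 0.52 ± 0.12 in the joint fit (adjusted p = 0.0155; 0.00782 without the acinar-high arrays).

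Rb1cc1 was at 0.28, 0.0027, 0.28 and -0.046 in control males and at -0.18, -0.26, -0.19 and -0.11 in hypo males, which did not overlap. Control females were at 0.28, 0.042, 0.19 and 0.12 and hypo females at -0.22, 0.11, 0.027, 0.021 and -0.44, which did overlap. The differences were -0.32 ± 0.091 and -0.26 ± 0.11 (adjusted p = 0.444 and 0.978, limma, Benjamini-Hochberg). Hypo+ pups were at 0.073, 0.17, -0.027 and 0.32 in males and -0.077, 0.32 and 0.19 in females. Rb1cc1 was higher in hypo+ than in hypo pups by 0.32 ± 0.091 in males and 0.25 ± 0.12 in females (adjusted p = 0.201 and 0.694), and it rose by 0.28 ± 0.079 in the joint fit (adjusted p = 0.0423). The female difference was 0.16 without the acinar-high arrays, and that of the joint fit was then 0.25 and was not called (adjusted p = 0.101). Its 6 probes differed in size, with differences of hypo from control from -0.40 to -0.079 among males and from -0.26 to -0.0073 among females. Atg13, which ties the kinase to Rb1cc1, differed from control by -0.14 ± 0.085 in hypo males and -0.18 ± 0.056 in hypo females without passing the test. Ulk2, Rb1cc1 and Atg13 all had negative differences of hypo from control in both sexes, their medians being -0.32 for males and -0.26 for females, and this held under loess and the 5 other scalings tried. Between hypo+ and hypo pups all 3 differences were positive with loess, with medians of 0.32 and 0.25, and 1 of the 3 was negative with median centring or with Cy5 alone.

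Of the ATG4 proteases, which trim ATG8 proteins before and after lipid coupling, Atg4c had the largest differences. It was at 2.49, 2.07, 1.99 and 2.25 in control males, at 1.98, 1.84, 1.55 and 1.91 in hypo males and at 3.29, 2.51, 2.60, 2.00 and 2.57 in hyper males. Control females were at 2.38, 2.13, 1.91 and 2.35, hypo females at 1.86, 2.35, 2.14, 1.48 and 1.99, and hyper females at 2.70, 2.46, 2.50, 2.24 and 2.59. Hypo males lay just below the controls, and the other groups overlapped. The difference of hypo from control was -0.38 ± 0.21 in males and -0.23 ± 0.15 in females, and that of hyper from control 0.39 ± 0.20 and 0.31 ± 0.15 (adjusted p between 0.846 and 1.00, limma, Benjamini-Hochberg). Its dimmer probe gave -0.052 and 0.0050 for hypo, so the lower level in hypo pups rests on 1 probe. The male differences were -0.55 for hypo and 0.22 for hyper without the acinar-high arrays. Hypo+ pups were at 2.39, 2.27, 1.82 and 2.62 in males and 2.12, 2.26 and 2.61 in females, 0.45 ± 0.21 and 0.36 ± 0.17 above hypo (adjusted p = 0.540 and 0.617). Atg4a, Atg4b and Atg4d had differences of hypo from control between -0.14 and 0.059, and between -0.26 (Atg4a in males) and 0.089 without the acinar-high arrays.

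The ATG8 proteins are the membrane tags to which cargo receptors and Trp53inp2 bind. In hypo males all 5 of Map1lc3a, Map1lc3b, Gabarap, Gabarapl1 and Gabarapl2 had negative differences, from -0.28 to -0.048 with a median of -0.18, and in hypo females 4 of 5 did, with a median of -0.093. Without the acinar-high arrays 4 of 5 were negative in males and their median was -0.070, Gabarapl1 moving from -0.28 to -0.070 and Map1lc3b from -0.27 to 0.028. None passed the test, and in females 3 of 5 were negative with median centring or with Cy5 alone. Gabarapl1 was at 1.99, 2.21, 2.44 and 1.81 in control males and at 1.94, 1.98, 1.43, 1.91 and 2.02 in hyper males, which overlapped. It was at 2.26, 1.85, 2.01 and 2.32 in control females and at 1.30, 1.69, 1.80, 1.65 and 1.77 in hyper females, which lay below all controls. The differences were -0.26 ± 0.21 and -0.46 ± 0.15 (adjusted p = 1.00 and 0.506, limma, Benjamini-Hochberg), and a dimmer probe gave -0.17 in each sex. It was -0.048 in males and -0.55 in females on the brighter probe without the acinar-high arrays. Hypo males were at 1.45, 1.74, 2.33 and 1.81 and hypo females at 1.69, 1.92, 1.63, 2.03 and 2.10, so that hypo and hyper pups took up about the same range. Hypo+ pups were at 1.71, 2.26, 1.70 and 2.73 in males and 1.86, 1.97 and 2.63 in females, and hypo+ females lay above all hyper females (difference 0.51 ± 0.17, adjusted p = 0.306). Map1lc3a, which encodes an LC3 protein, lies 104 kb from Trp53inp2 on chromosome 2 (GRCm38.p6). Its differences of hypo from control were -0.18 ± 0.12 and -0.15 ± 0.11, and those of hyper from control -0.031 and 0.045, in males and females (-0.055 and 0.086 without the acinar-high arrays).

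The conjugation machinery, which activates ATG8 and ATG12 and couples them, showed small differences. Atg3, Atg5, Atg7, Atg10, Atg12 and Atg16l1 differed from control by -0.15 to 0.018 in hypo males and by -0.064 to 0.094 in hypo females, and Atg12 in hypo males lay below all controls. These ranges were -0.17 to 0.053 and -0.072 to 0.12 without the acinar-high arrays. The class III lipid kinase complexes, which mark the growing membrane with a phosphoinositide, had 5 measured genes (Atg14, Becn1, Pik3c3, Uvrag and Ambra1), with a median difference of -0.030 in males and 0.025 in females for hypo. Atg14, which directs this kinase to autophagosomes, had the lowest values of these, -0.29 and -0.20. The male value was -0.17 without the acinar-high arrays and 0.0019 without control male 522 alone, so it rests on that pup. The median of the 5 genes was 0.0094 in males and -0.016 in females without the acinar-high arrays, so that its direction turned in both sexes. Atg2a, Atg2b, Wipi1 and Wipi2, which supply and sense membrane lipid, ran from -0.28 (Wipi1) to 0.041 in hypo males and from -0.24 (Atg2a) to -0.0090 in hypo females, and from -0.23 to 0.15 and -0.26 to -0.045 without the acinar-high arrays. None of the genes of these groups was called in either sex.

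Among the receptors that bring cargo to the autophagosome, Bnip3, a mitophagy receptor of the outer mitochondrial membrane, had its highest means in hypo pups, where Ulk1 had its lowest. It was at -1.47, -0.99, -0.49 and -1.13 in control males, at -0.44, -0.74, -0.58 and -0.54 in hypo males and at -1.06, -1.12, -1.49, -1.46 and -1.13 in hyper males. Control females were at -0.97, -1.08, -0.95 and -1.01, hypo females at -0.62, -0.33, -0.61, -0.46 and -0.40, and hyper females at -1.34, -1.04, -1.47, -1.12 and -0.99. Every hypo female lay above every control female, and control male 522, one of the pups high in acinar markers, lay among the hypo males. The difference of hypo from control was 0.44 ± 0.21 in males and 0.52 ± 0.14 in females (adjusted p = 0.970 and 0.308, limma, Benjamini-Hochberg). Without the acinar-high arrays it was 0.72 in males, over 1.5 times as large, and 0.50 in females. The difference of hyper from control in males went from -0.23 to 0.049 without these arrays. Bnip3 in hypo females passed the test in a fit of only those groups (0.52, adjusted p = 0.0374), in a fit with the slide as a block (0.51, adjusted p = 0.0265) and without hypo+ female 601 (0.52, adjusted p = 0.0341). In the joint fit it passed only without the acinar-high arrays (0.59, adjusted p = 0.0406), where 0.661% of all genes were called.

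Hypo+ pups spread widely for Bnip3, at -0.92, -1.27, -0.76 and -0.11 in males and -1.09, -0.87 and -0.18 in females. They were above hyper pups by 0.49 ± 0.20 and 0.48 ± 0.16 within the sexes (adjusted p = 0.428 and 0.299), and Bnip3 rose between these groups by 0.50 ± 0.13 in the joint fit (adjusted p = 0.0323, limma, Benjamini-Hochberg; 0.0194 without the acinar-high arrays). Its relative Bnip3l differed from control by 0.015 in hypo males, or 0.16 without the acinar-high arrays, and by 0.039 in hypo females. Sqstm1 encodes p62, a receptor for ubiquitin-tagged cargo that is itself consumed by autophagy. Its difference of hyper from control was -0.19 ± 0.092 in males and -0.39 ± 0.12 in females, with all hyper females below all controls (adjusted p = 1.00 and 0.417), and -0.12 and -0.37 without the acinar-high arrays. In hypo pups it was 0.22 ± 0.097 and -0.032 ± 0.12. Nbr1, a further receptor for ubiquitin-tagged cargo, differed from control by -0.023 and -0.064 in hypo males and females, or by 0.048 and -0.085 without the acinar-high arrays.

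**Figure D3:**
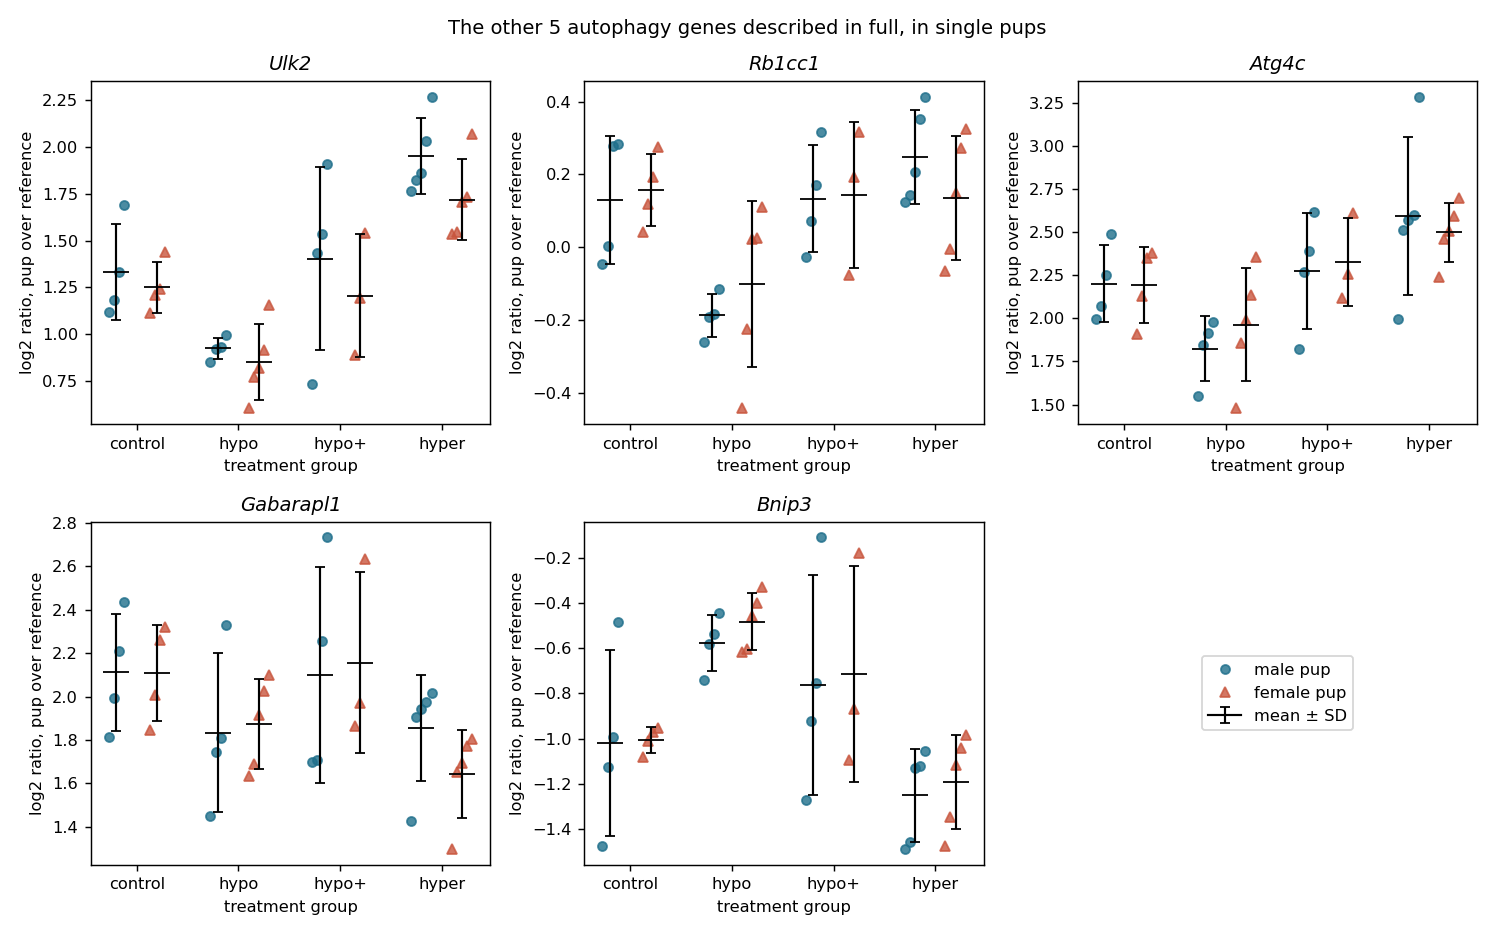
Log2 ratio of pup over reference RNA (vertical axis, its range set for each gene) for Ulk2, Rb1cc1, Atg4c, Gabarapl1 and Bnip3 in each pup, by treatment group; circles are males, triangles females, and bars the mean ± SD of 3 to 5 pups. The means of Ulk2 are lowest in hypo and highest in hyper pups, and those of Bnip3 are highest in hypo pups, with a wide spread in hypo+.

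Trp53inp1, the only other gene of its family on the list, had small differences with a wide error. The male and female differences of hypo from control were -0.090 ± 0.31 and 0.038 ± 0.20, and those of hyper from control -0.025 and -0.20. They were 0.035 and -0.15 for hypo and 0.10 and -0.38 for hyper without the acinar-high arrays, so that 3 of the 4 changed sign. Tfeb, a master regulator of lysosomal and autophagy genes, and the lysosomal membrane genes Lamp1 and Lamp2 differed from control by -0.092 to 0.016 in hypo pups, and by -0.12 to 0.018 without the acinar-high arrays.

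In the other comparisons too, none of the 35 genes was called within a sex (limma, Benjamini-Hochberg). Between hyper and control pups 0.0782% of all genes passed in males and 0.159% in females. At an unadjusted p under 0.05 the 35 genes had 0 lower and 1 higher (Ulk2) in males, beside 1.17% and 1.8% of all genes, and 5 lower (Ambra1, Gabarapl1, Sqstm1, Nbr1 and Lamp2) and 1 higher (Ulk2) in females, beside 3.14% and 2.68%. Hyper and control pups did not overlap in Ulk2 (higher) in males, against 0.37% lower and 0.881% higher of all genes, and in Ulk2 (higher), Gabarapl1, Sqstm1 and Lamp2 (lower) in females, against 1.33% lower and 1.19% higher. Between hypo+ and control, 0.0271% and 0.021% of all genes were called, and 3 of the 35 genes were lower at an unadjusted p under 0.05 in males (Atg3, Atg4b and Atg7) and 0 in females, with 0 higher in either sex. Of all genes 3.8% were lower and 3.46% higher at that level in males, and 2.52% and 2.29% in females. Between hypo+ and hypo, 0.373% and 0.571% of all genes were called, and 1 of the 35 was lower and 3 higher in males and 0 lower and 3 higher in females at that unadjusted level, beside 4.86% lower and 4.08% higher of all genes in males and 4.18% and 3.5% in females. Between hypo+ and hyper, 0.00601% and 0.0992% of all genes were called, and the counts were 4 lower and 2 higher in males and 2 lower and 5 higher in females, beside 5.05% and 4.22% of all genes in males and 4.43% and 4.46% in females. Without the acinar-high arrays, the unadjusted counts between hypo+ and control were 0 lower and 2 higher in males and 1 and 1 in females. Between hypo+ and hypo they were 1 lower and 3 higher in males and 3 lower and 2 higher in females. Between hyper and control males they were 0 and 0, and between hypo+ and hyper females 4 lower and 6 higher. The shares of all genes at that level without these arrays were not taken, so nothing is drawn from these counts either. In the joint fit of both sexes, Ulk2, Bnip3, Sqstm1 and Atg7 were called between hypo+ and hyper, 4 of the 35 where 2.8% of all genes were. Sqstm1 rose by 0.30 ± 0.085 (adjusted p = 0.0481) and Atg7, the enzyme that activates ATG8 and ATG12, fell by 0.21 ± 0.058 (adjusted p = 0.0397). Without the acinar-high arrays Ulk2, Bnip3, Atg7 and Atg3 were called there, 4 of the 35 where 4.18% of all genes were, and Sqstm1 was not (0.28, adjusted p = 0.0767). Rb1cc1 was the single gene of the 35 called between hypo+ and hypo in that fit, where 3.01% of all genes were, and none was called in hypo or in hypo+ against control, where 0.998% and 0.869% were.

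**Figure D4:**
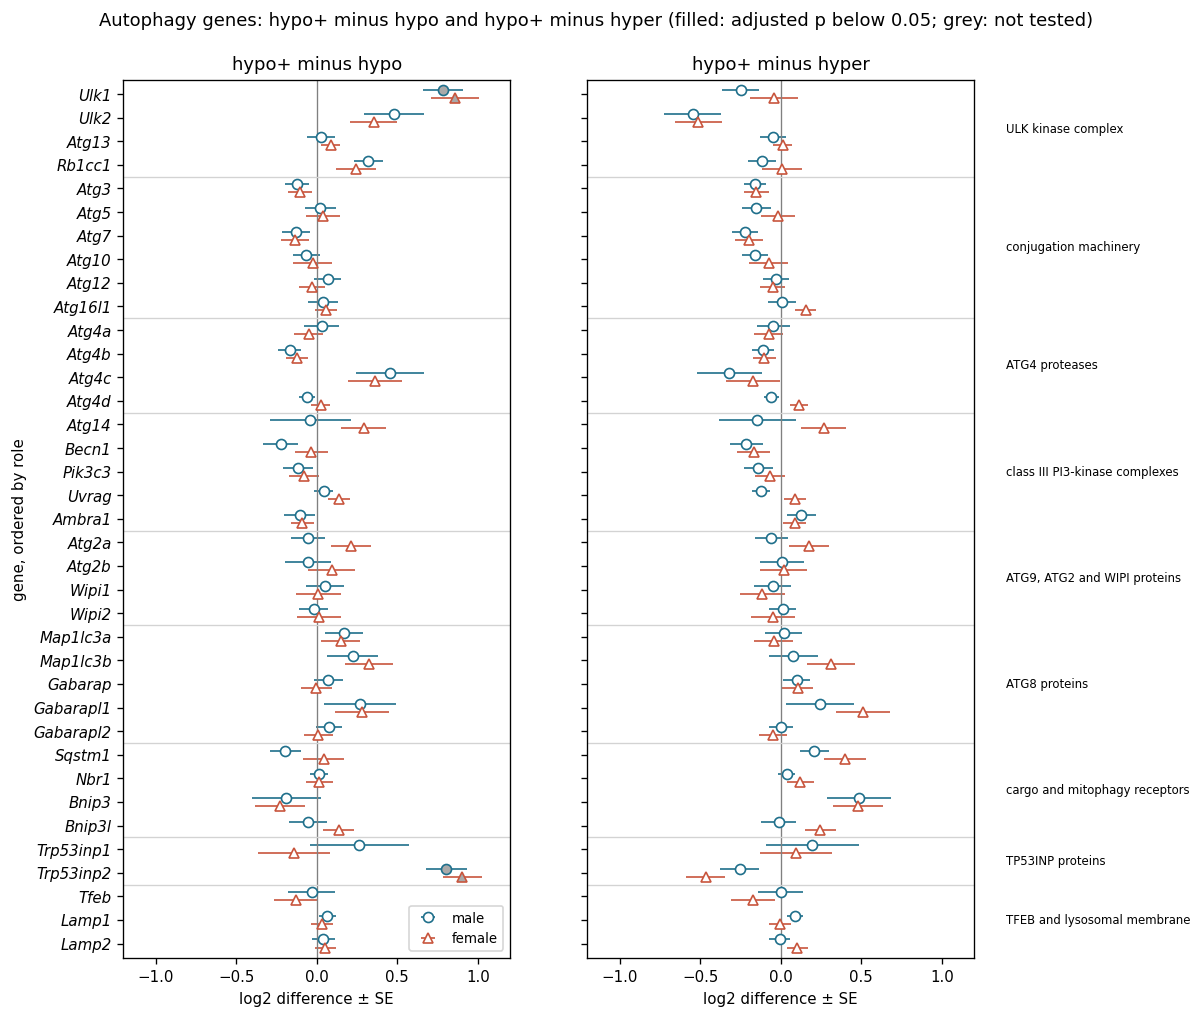
Log2 difference ± SE of hypo+ minus hypo (left) and hypo+ minus hyper (right) for the 37 autophagy genes, ordered by role; circles are males, triangles females, open symbols did not pass the test, coloured ones have an adjusted p under 0.05, and the grey ones of Ulk1 and Trp53inp2 on the left panel carry no test, since the hypo pups chose these genes. Ulk1 and Trp53inp2 lie far to the right on the left panel, where they share the hypo pups that chose them, and Ulk2 lies to the left and Bnip3 to the right on the right panel.

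The order of the group means was then set beside that of Ulk1 and Trp53inp2. Both had hypo lowest, hyper highest and control and hypo+ between them in both sexes. Of the other 35 genes, Ulk2 and Atg4c had this order, 2 of 35, while 2.25% of all genes had it. The opposite order, with hypo highest and hyper lowest, was held by Ambra1 and Bnip3, again 2 of 35, beside 2.43% of all genes. Without the acinar-high arrays Trp53inp2, Ulk2 and Atg4c had the first order and Ulk1 did not, where 1.66% of all genes had it, and 0 of 35 had the opposite one, where 1.55% of all genes did. Control and hypo+ were neighbours in this order and did not differ beyond their spread, with differences of hypo+ from control of 0.022 ± 0.12 and 0.17 ± 0.16 for Ulk1 and 0.086 ± 0.13 and 0.15 ± 0.13 for Trp53inp2 in males and females. They were 0.11 and 0.23 for Ulk1 and 0.15 and 0.10 for Trp53inp2 without the acinar-high arrays.

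Males and females were compared in 1 fit of 8 groups. This fit had no block for litter, although many males had a presumed littermate among the females of the same treatment. For none of the other 35 genes did the response differ between the sexes at an adjusted p under 0.05 in any of the 5 comparisons (limma, Benjamini-Hochberg), and at an unadjusted p under 0.05 Atg4d and Uvrag differed, 2 of 35, in hypo+ against hyper, where 2.51% of all genes passed that level.

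Genes around the pathway were read from further lists. Of 23 measured autophagy genes outside the list, Tmem41b, an endoplasmic reticulum protein that moves lipid for autophagosome formation, was called. Its calls stood where 0.373% and 0.571% of all genes were called between hypo+ and hypo males and females, and 0.159% between hyper and control females. It rose between hypo and hypo+ pups by 0.33 ± 0.060 in males and 0.32 ± 0.069 in females (adjusted p = 0.0204 and 0.0474, limma, Benjamini-Hochberg), and between control and hyper females by 0.38 ± 0.063 (adjusted p = 0.0256). Without the acinar-high arrays the call in males remained (adjusted p = 0.0395), and the female differences, 0.28 and 0.35, were not called (adjusted p = 0.189 and 0.0966). Of 27 measured regulators in the mTORC1, AMPK and FOXO pathways, which set ULK1 activity and autophagy gene levels, 0 were called, and of 34 lysosomal genes 0 were called, in any comparison of either sex. At an unadjusted p under 0.05, hypo against control, 3 of the 23 further autophagy genes were lower and 1 higher in males and 2 were lower in females, and 2 of the 27 regulators were lower and 1 higher in males and 1 was lower in females. Of the lysosomal genes, 1 was lower and 5 higher in hypo males and 0 in hypo females. Of all genes 2.43% were lower and 2.76% higher at that level in hypo males, and 2.29% and 2.46% in hypo females.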

How the data were processed

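For each array the authors deposited the intensity of every spot as read by the scanner software, Feature Extraction 10.1.1.1, and a log10 ratio that is background-subtracted and dye-normalized per the file headers. A log2 ratio of Cy5 to Cy3 per spot, loess-normalized by the methods, was also supplied by the authors.

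Median spot intensities were used without background correction. Control spots and outlier spots were left out, loess was run within arrays in limma 3.58.1 (R 4.3.3), and spots of a probe were averaged (41174 probes). Of 33541 systematic names, 16806 gave a RefSeq symbol, which made 33269 genes, each read by the probe brightest on average. Each sex had its own limma fit of 4 groups, with Benjamini-Hochberg adjustment and a threshold of 0.05. In the joint fit, litter (20 in all) was presumed from the leading 2 digits of the animal numbers, which no source states.

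Replicates are single pups, so p-values measure the spread between pups. Presumed littermates were always of opposite sex, so they meet only in the fits that join the sexes. The paper also fitted the sexes apart, to avoid correlation through the dam. Arrays give no counts, and their number limits the precision. The list, Ulk1, Trp53inp2, the other lists and the tests were chosen with earlier results of these data known. Every pup is given for Ulk1, Trp53inp2 and members called in the main fits within a sex, where calls in the joint fit did not count. Every pup is also given for members among the 3 largest mean differences over both sexes in hypo or hyper against control or hypo+ against hypo. All other members may be named. The test was checked on simulated data. Alternatives covered background, scaling, probe choice, slide, scan, litter and single arrays.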

Additional observations from a re-analysis of the deposited data

Results flagged for a closer look

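In 49 groups of 4 or 5 pups (7 genes given in full), Dixon's gap test put 2 pups apart from their group, where chance gives about 1 in 20 groups. Hypo female 721 was at 0.93 for Ulk1, while the other hypo females were between 0.087 and 0.26. Hyper male 498 was at 1.43 for Gabarapl1, while the other hyper males were between 1.91 and 2.02.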

How the results depend on the processing

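The count of the 35 other genes called, 0 in each comparison of either sex, changed in these fits. With both sexes together it was 1 in hyper against control (Ulk2), 1 in hypo+ against hypo (Rb1cc1) and 4 in hypo+ against hyper, and without the acinar-high arrays, chosen after seeing the data, these were 0, 0 and 4, with 1 in hypo against control (Bnip3). With all probes of a gene averaged it was 1 in hypo+ against hypo in males (Rb1cc1, adjusted p = 0.0454, limma), where 0.331% of all genes were called. With the slide as a fixed block it was 1 in hypo against control (Bnip3) and 1 in hyper against control (Ulk2, 0.52, adjusted p = 0.0464) in females, where 0.334% and 0.472% of all genes were called, up from 0.156% and 0.159% without the block. With only the compared groups it was 1 in hypo against control in females (Bnip3), where 0.0661% were called. Leaving out 1 array at a time gave 0 to 1 in that comparison, with 1 only without hypo+ female 601 (0.21% of all genes). The rise of Trp53inp2 in hyper females kept its size but not its call with normexp background correction (0.65, adjusted p = 0.0618), median centring (0.79, adjusted p = 0.755), the Feature Extraction ratio (0.63, adjusted p = 0.111), Cy5 alone (0.63, adjusted p = 0.0566) and without the acinar-high arrays (0.65, adjusted p = 0.0671), and the cause was not tested. The difference of hypo from control of Ulk1 and Trp53inp2 kept its sign in all 14 alternatives in both sexes. These alternatives reuse the pups that chose the genes, so they do not test the difference. Of the 70 differences of the 7 genes given in full, 53 kept their sign in all 14 alternatives, and the other 17 were not called. Treatments could not be paired by replicate number, because the animal numbers in the labels are unique to a pup. Each presumed litter held pups of a single treatment, and its males and females were not paired in the comparison of the sexes. Slides that held several groups were used as the block above.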
